A study of Mus musculus with 10 samples.

Results

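Cytosolic ribosomal protein genes are the genes for the proteins of the ribosome that translates nuclear mRNA. They were taken from the probe annotation as every probe with 1 gene symbol beginning with Rpl or Rps and a number, or named Rplp0 to Rplp2 or Rpsa, leaving out the kinases named Rps6k and symbols that end in the pseudogene mark. The rule found 94 probes for 62 genes, of 20355 probes and 9930 genes in all. There were 38 large-subunit symbols with 56 probes and 24 small-subunit symbols with 38 probes. The probes with values in enough mice to be tested numbered 80, for 60 genes, of which 37 carried a large-subunit and 23 a small-subunit symbol. The other 14 probes had between 4 and 8 values each, and through them Rpl41, with 4 values between -4.66 and 3.04, and Rps27l, with 5 values between -1.99 and 4.12, were left without a tested probe. The rule read symbols and not function. It therefore took in Rpl22l1, Rpl36al, Rpl39l and Rps27l, which are paralogs of subunits, Rpl7l1, a relative of Rpl7, and Rps19bp1, a protein that binds Rps19.

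The measured tissue was brain of 5 male Cin85-/- mice aged 15 weeks. Sh3kbp1 encodes Cin85, which links Cbl ubiquitin ligases to endophilins when surface receptors are internalised. RNA of each mouse was hybridised on 2 arrays, with the mutant in Cy5 on 1 array and in Cy3 on the other, which gave 10 arrays. The partner in every hybridisation was a pool of brain RNA from male wildtype mice aged 15 weeks, with 5 animals by their listed identifiers and 6 by the labelling protocol. The pool is 1 control sample, so the spread between wildtype mice was not measured, and the sources used here do not give the background strain or the deleted part of Sh3kbp1. By the titles and the name of the pool the tissue was brain, but the mutant RNA has Kdn in its source name, an abbreviation left unexplained by the labels. Neuron markers, among them Syt1 and Eno2, gave values in 6 genes and markers of kidney tubules in 4 genes. A ratio to a pool does not show at what level a marker stood, so the tissue could not be checked by level.

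The values are log2 ratios made by the authors. Each array was centred on its median, and the mean of the 2 arrays of a mouse is called the pair mean below. The sources used here do not give the numerator of the ratios, nor whether dye-swapped arrays were turned before deposit. The counts and the main gene values are therefore given in both readings, as deposited and with the sign of the Cy3 arrays turned before averaging, which is called the dye term, or the other reading of the swap. A value given without a reading is as deposited. A negative value is never read here as less RNA in the mutant. Arrays of the same orientation correlated positively over all probes, with r between 0.084 and 0.26 in 16 pairs, and arrays of opposite orientation negatively, with r between -0.29 and -0.064 in 20 pairs. These pairs leave out the array of mouse 3 with the mutant in Cy3. That array stood apart, with r between -0.067 and 0.038 against all others, 16816 values against 18773 to 19424, and a median absolute ratio of 0.712 against 0.226 to 0.489. Sh3kbp1 gave 0.0082 ± 0.139 (SD, n = 5 mice) on probe 8640 as deposited, with an adjusted p of 0.989 by limma, and 0.115 ± 0.0888 as dye term, with an adjusted p of 0.442. Its other probe, 4508, had 4 values and was not tested. That probe read 2.71, 3.19 and 17.6 on the Cy5 arrays of mice 2, 4 and 5 and -2.38 on the Cy3 array of mouse 4, and the value of 17.6 is the extreme value that array holds at many probes. Where the probes lie relative to the deletion is likewise unknown, so these values do not check the genotype.

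The ribosome has a small subunit, which reads the mRNA, and a large subunit, which forms the peptide bond, and each is built from ribosomal RNA and a fixed set of proteins. Cells keep the proteins in step with each other, and their mRNAs begin with a run of pyrimidines, the terminal oligopyrimidine motif, through which the mTOR pathway and Larp1 control translation. In brain the same mRNAs are abundant in cell bodies and are also carried into dendrites and axons. Ribosomal protein genes have many processed pseudogenes of near-identical sequence, so a probe may also read such copies, and the sequences of these probes were not used here.

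The start regions of 6 genes whose values are described below are shown because transcription of ribosomal protein genes typically starts within the pyrimidine run. Of these stretches, those of Rpl31, Rps28 and Rps18 match neither CTCTTTC nor CTTTCC, the pyrimidine runs marked below. This does not mean that they lack such a run. An unmarked run of c and t lies across the RefSeq start in Rps18, as ctctctcttcc, and in Rpl31, as cctcccc. The marked runs of Rps15a and Rpl4 end before the RefSeq start, but in Rps15a a further, unmarked run of c and t lies across it. Rps15a, Rps27, Rpl31 and Rps28 had negative pair means in all 5 mice, Rpl4 had the lowest mean and Rps18 had the second highest. Each stretch runs from 40 bases before to 25 after the transcription start in RefSeq, on GRCm38.p6, 5′ to 3′ on the strand of the gene. Capitals mark a match to 1 of 5 motifs. These are CTCTTTC and CTTTCC, pyrimidine runs searched on the strand of the gene, TATAAA, the TATA box, searched on the same strand, CCGGAAG, the core bound by ETS factors, searched on both strands, and CTCGCGAGA, a motif of many housekeeping promoters, searched on both strands. CTCTTTC and CTTTCC overlap in CTCTTTCC. CTCGCGAGA and its reverse complement overlap in the 10 capitals of Rps28.
Rps15a, chr7:118116123-118116187, minus strand: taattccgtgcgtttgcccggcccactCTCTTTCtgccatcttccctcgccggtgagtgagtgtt
Rps27, chr3:90213624-90213688, minus strand: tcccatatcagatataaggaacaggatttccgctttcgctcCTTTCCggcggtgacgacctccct
Rpl31, chr1:39367811-39367875, plus strand: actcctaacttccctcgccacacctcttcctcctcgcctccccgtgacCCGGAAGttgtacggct
Rps28, chr17:33824538-33824602, minus strand: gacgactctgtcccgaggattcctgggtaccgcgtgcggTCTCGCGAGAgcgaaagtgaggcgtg
Rpl4, chr9:64173347-64173411, plus strand: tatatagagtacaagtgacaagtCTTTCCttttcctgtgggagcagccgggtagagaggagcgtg
Rps18, chr17:33955641-33955705, minus strand: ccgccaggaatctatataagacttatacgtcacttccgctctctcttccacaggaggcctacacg

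Over the whole 300-base window of the RefSeq table, 54 of the 62 genes had a promoter. CCGGAAG was in 40.7% of these 54 windows and in 9.12% of the windows of all 27025 genes. CTTTCC was in 37.0% against 14.0%, CTCTTTC in 16.7% against 3.91%, CTCGCGAGA in 9.26% against 0.718%, and TATAAA in 9.26% against 8.88%. Median pair means with and without a match were -0.067 in 20 genes and -0.079 in 32 for CCGGAAG, and -0.065 in 20 and -0.079 in 32 for CTTTCC. They were -0.066 in 9 genes and -0.071 in 43 for CTCTTTC, -0.13 in 5 and -0.069 in 47 for CTCGCGAGA, and -0.18 in 5 and -0.066 in 47 for TATAAA. Negative means numbered 15 of 20 genes with a match and 26 of 32 without for CCGGAAG, and the same for CTTTCC. They numbered 7 of 9 and 34 of 43 for CTCTTTC, 4 of 5 and 37 of 47 for CTCGCGAGA, and 5 of 5 and 36 of 47 for TATAAA. Of all measured genes of the list 80% had a negative mean. Negative dye terms with a match numbered 10 of 20, 10 of 20, 7 of 9, 2 of 5 and 2 of 5 in the same order. Those without a match numbered 19 of 32, 19 of 32, 22 of 43, 27 of 47 and 27 of 47. The dye-term medians with and without a match lay between -0.041 and 0.059 and between -0.042 and -0.021. A match is a description of the letters and not a site.

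No ribosomal protein gene differed from the pool past the threshold in either reading. As deposited, limma called 0 of 60 genes at an adjusted p of 0.05, against 0% of the 8711 genes tested, and the adjusted p-values of the 60 genes ran from 0.918 to 0.992. At an unadjusted p under 0.05 there were 4 of 60 genes, or 6.67%, against 3.52% of all genes. Of these 4, Rpl30, Rps15a and Rps27 were negative, which is 5% against 1.66% of all genes, and Rps18 was positive. The mean was within 0.2 of 0 in 50 of the 60 genes, or 83.3%, against 72.5% of all genes. The 95% interval lay within 1.5-fold in either direction in 51 genes, or 85%, against 65.6%, and within 2-fold in 56, or 93.3%, against 88.5%. In the other reading the mean was within 0.2 of 0 in 34 of 60, or 56.7%, against 44.2% of all genes. The interval was then within 1.5-fold in 41, or 68.3%, against 46.9%, and within 2-fold in 54, or 90%, against 83.3%. Over probes the count was likewise 0 of 80, against 0% of 16939 probes, with 4 at an unadjusted p under 0.05, or 5%, against 3.73% of all probes. Without the array of mouse 3 that stood apart, an alternative chosen after seeing the data, 10 of 80 probes had an unadjusted p under 0.05, against 5.58% of all probes, and 0 passed the adjusted threshold, the smallest adjusted p being 0.724.

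The sign of the pair means was uneven. It was negative in 48 of 60 genes, or 80%, against 50.6% of all genes, and in 61 of 80 probes, or 76.2%, against 49.9% of all probes. The median over the 60 genes was -0.079, against -0.0026 over all genes, and the medians in mice 1 to 5 were -0.078, -0.054, -0.15, -0.074 and -0.099. All 5 mice were below 0, and so was the median over the probes on each of the 10 arrays, between -0.17 and -0.025. Every one of these ratios shares the same wildtype pool, so the mice and arrays are not independent in that part. In the dye term the split was 34 negative and 26 positive, or 56.7% negative against 55.6% of all genes. The median dye term was -0.031, against -0.051 over all genes. The share of negative genes thus stood apart from that of all genes as deposited and lay near it in the other reading. The pair means were also tighter than those of all tested probes, a trait shared with some other lists. Over genes the median SD over mice was 0.216 for the ribosomal proteins and 0.315 for all genes. It was 0.223 for oxidative phosphorylation genes, 0.175 for 15 other terminal oligopyrimidine mRNAs and 0.285 for the mitochondrial ribosome. Over probes it was 0.229 for the ribosomal proteins and 0.340 for all tested probes, while the median size of the mean was 0.120 and 0.124. Markers of other cells gave these values beside the list. The choroid plexus markers Ttr and Sostdc1 had means of -0.35 and -0.32, each with an unadjusted p under 0.05, and the 3 measured microglia markers lay between -0.17 and -0.13. Of the neuron markers 3 of 6 were negative, with a median of 0.0095, and of the astrocyte markers 4 of 5, with a median of -0.045. Of the 4 measured oligodendrocyte markers 3 were positive, with a median of 0.03, and Cnp among them had a mean of 0.27 and an unadjusted p of 0.0158. Of the 2 of red blood cells 1 was positive. As dye term Ttr and Sostdc1 gave -0.063 and -0.43, Cnp -0.37, the microglia markers a median of -0.22, the neuron markers -0.058 and the astrocyte markers 0.046. The part of cell composition in the ribosomal protein values was not tested, and in a whole brain fewer cells of a type and less RNA per cell cannot be told apart.

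**Figure D1:**
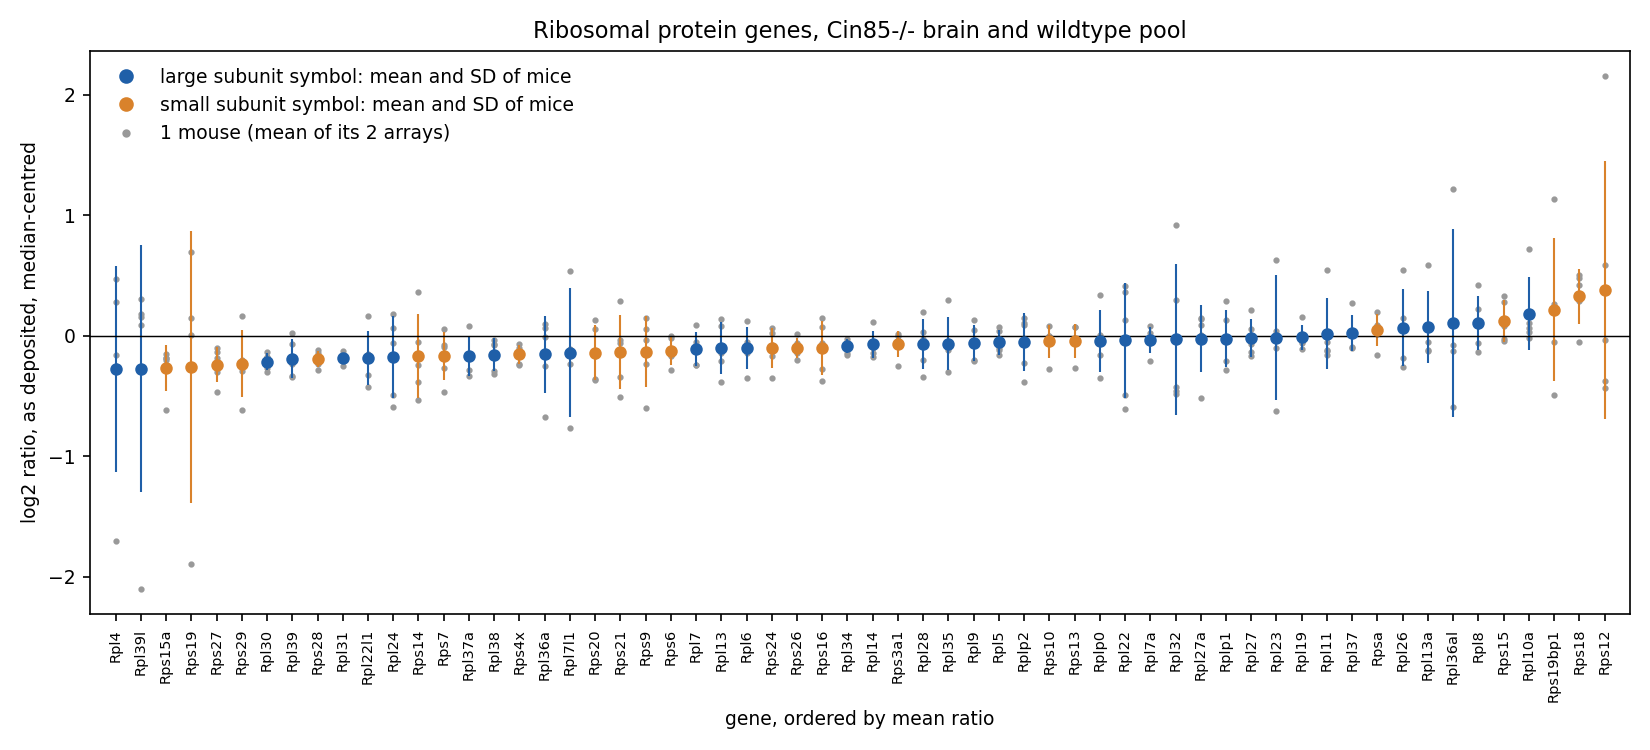
Pair means (log2 ratio, as deposited) of the 60 measured ribosomal protein genes, ordered by mean on the horizontal axis. Coloured points and bars are the mean and SD over mice, and small grey points are single mice. Of the 60 means, 48 are below 0 and 50 are within 0.2 of it, and the widest bars belong to genes such as Rpl4, Rpl39l, Rps19 and Rps12 in which 1 mouse lies far from the rest.

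Among proteins of the small-subunit body and platform, which hold the mRNA and face the solvent, 11 of 12 measured genes had negative means, with a median of -0.13, and 7 of 12 negative dye terms, with a median of -0.037. Rps15a, a protein of the small-subunit body, had pair means of -0.15, -0.18, -0.61, -0.20 and -0.18 in mice 1 to 5. Every mouse was negative and mouse 3 was the lowest. The mean was -0.27 ± 0.19 (SD, n = 5), with an unadjusted p of 0.0417 and an adjusted p of 0.918 by limma. Without mouse 3 it was -0.18. Its dye term was -0.0094, so the value lay almost wholly in the part shared by both dye orientations. Rps27, a zinc-binding protein of the small subunit, gave -0.19, -0.30, -0.47, -0.14 and -0.10. All 5 mice were negative, with a mean of -0.24 ± 0.15 and an unadjusted p of 0.0430. The dye term was 0.16. Rps4x, whose gene is X-linked, gave -0.064, -0.10, -0.24, -0.13 and -0.23, with a mean of -0.15 ± 0.078 and an unadjusted p of 0.109. In the other reading it was -0.12 ± 0.15. Rps6, the substrate of S6 kinase that is often used as a readout of mTOR activity, was also negative in all 5 mice, at -0.13 ± 0.12, with a dye term of 0.040 ± 0.14. The measured level is that of the mRNA and says nothing of phosphorylation. The gene of the list with a positive mean was Rpsa, the laminin receptor protein of the small subunit, at 0.046 ± 0.13, with a dye term of -0.35 ± 0.22.

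Among proteins of the small-subunit head, which moves during translocation, 6 of 9 means were negative, with a median of -0.098, and 4 of 9 dye terms, with a median of 0.0033. The head held both the widest range and the 3 highest means of small-subunit proteins. Rps12, a protein of the beak of the head, gave -0.037, -0.43, -0.37, 2.15 and 0.59, so that mouse 4 was far above the others and 3 of 5 mice were negative. The mean was 0.38 ± 1.07, with an unadjusted p of 0.368, and without mouse 4 it was -0.063. Its dye term was -0.38 ± 0.86. Rps18, a protein of the head near the bridge to the large subunit, gave -0.049, 0.29, 0.51, 0.42 and 0.48. The mean was 0.33 ± 0.23, the unadjusted p was 0.0253, the smallest of the 60 genes, and 4 of 5 mice were positive. On its probe 167 the arrays with the mutant in Cy5 read 0.35, 0.62, 1.01, 1.66 and 1.41 and those with the mutant in Cy3 read -0.45, -0.051, 0.004, -0.81 and -0.45. The orientations did not overlap, and the Cy3 arrays alone had a mean of -0.35. Rps15 had a mean of 0.12 ± 0.17 and a dye term of -0.16 ± 0.32. Its mean was 0.074 without mouse 4. Its probes 1786 and 16703 both had values on all 10 arrays, with means of 0.014 and 0.24.

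Rps28, a protein of the mRNA exit side, was negative in all 5 mice, at -0.12, -0.17, -0.14, -0.24 and -0.28. The spread was narrow, with a mean of -0.19 ± 0.067 and an unadjusted p of 0.0567. As dye term it was 0.39 ± 0.12, with an unadjusted p of 0.00506 and an adjusted p of 0.105. These values average 2 probes. On probe 8318 alone mouse 3 gave 0.12, and the mean was -0.096 ± 0.18. Rps29 gave -0.20, -0.62, -0.29, -0.21 and 0.17, with a mean of -0.23 ± 0.28 and 4 of 5 mice negative. Without mouse 2 the mean was -0.13, and the dye term was 0.26 ± 0.12. Rps19, the gene most often mutated in Diamond-Blackfan anaemia, had 4 mice with both arrays, which gave -1.90, 0.15, 0.0085 and 0.70. Mouse 1 was far below the other 3, and the mean was -0.26 ± 1.13. Its dye term was -1.17 ± 0.76 over the same 4 mice.

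In the large subunit, too, the lowest and highest means belonged to genes in which 1 mouse stood apart. Rpl4, a large-subunit protein that reaches into the exit tunnel, gave -0.25, 0.28, 0.47, -1.70 and -0.15. Mouse 4 was the lowest, the mean was -0.27 ± 0.85, and without that mouse it was 0.085. Its dye term was 0.47 ± 0.35. Rpl39l, a paralog best known from testis, gave 0.19, 0.16, -2.10, 0.31 and 0.0895, with a mean of -0.27 ± 1.02. Mouse 3 alone was negative, and without it the mean was 0.19. As dye term it was 0.28 ± 0.45. Rpl10a, a protein of the L1 stalk, gave 0.036, -0.017, 0.72, 0.11 and 0.069. Its mean was 0.18 ± 0.30, the highest of the large subunit, and 0.049 without mouse 3, and its dye term was -0.22 ± 0.48.

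Rpl30, a large-subunit protein known in yeast for binding its own transcript, had the smallest p of the large subunit. Its pair means were -0.30, -0.18, -0.14, -0.27 and -0.18, with all 5 mice negative. The mean was -0.21 ± 0.070, with a 95% interval from -0.41 to -0.016 and an unadjusted p of 0.0382. In the other reading the mean was -0.11 ± 0.070. The pair means average 2 probes, and on probe 8859 alone mice 3 and 5 gave 0.0165 and 0.018. Rpl31, a protein at the tunnel exit, gave -0.13, -0.25, -0.19, -0.19 and -0.16. This was the narrowest spread among the genes negative in all mice, with a mean of -0.18 ± 0.044 and an unadjusted p of 0.0567, and the dye term was 0.22 ± 0.080. Rpl38, known for its role in the translation of Hox mRNAs, and Rpl34 were also negative in all 5 mice, at -0.16 ± 0.14 and -0.087 ± 0.058, with dye terms of -0.27 ± 0.33 and -0.094 ± 0.21. For Rpl34 this holds only for the average of its probes. Probe 15590 gave 0.087 in mouse 4, and probe 19043 gave 0.054 and 0.11 in mice 2 and 3. In all, 9 of the 56 genes with 5 mouse values were negative in every mouse, or 16.1%, against 3.55% of all genes with 5 values, and 0 were positive in every mouse. Over probes it was 11 of 68, or 16.2%, against 3.57%. In the dye term 7 of the 56 genes were negative in every mouse, or 12.5%, against 16.7% of all genes. A further 6, or 10.7%, were positive in every mouse. The share of all genes positive in every mouse is not given here for either reading.

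Further groups were read by role, chromosome or disease, some of them over both subunits. The P stalk, which recruits translation factors, had means of -0.042 for Rplp0, -0.023 for Rplp1 and -0.051 for Rplp2, and dye terms of 0.080, -0.22 and -0.021. Of the 5S particle, which also restrains Mdm2 when ribosome assembly fails, Rpl5 had a mean of -0.053 and Rpl11 of 0.019, with dye terms of -0.041 and -0.0052. The ring around the tunnel exit had 5 of 6 means negative, with a median of -0.051, and 5 of its 6 dye terms were positive, with a median of 0.18. Rpl39 had its lowest mean, at -0.19 ± 0.16, and Rpl31 the next, at -0.18 ± 0.044. Of the 13 measured genes linked to Diamond-Blackfan anaemia, 11 had negative means, with a median of -0.098, and 8 negative dye terms, with a median of -0.041. The X-linked genes Rpl36a, Rpl39 and Rps4x lay between -0.19 and -0.15, and between -0.12 and 0.059 as dye term. The 5 measured paralogs and non-subunits were more variable, with 3 negative and 2 positive means and a median SD over mice of 0.594, against 0.201 for the 55 subunit genes. Among these, Rps19bp1 had a mean of 0.22 ± 0.59, and without mouse 3 it was -0.014. In the other reading it was 0.22 ± 0.53. Without the paralogs and non-subunits the median over genes was -0.071 and 45 of 55 means were negative, and in the dye term the median was -0.041 and 32 of 55 were negative.

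Large and small subunit did not differ beyond the spread between mice. The median over large-subunit genes was -0.061, with 30 of 37 means negative, and that over small-subunit genes was -0.13, with 18 of 23 negative. Their difference, large minus small, was 0.064 over these medians. Taken mouse by mouse, the large-subunit medians were -0.098, -0.058, -0.060, -0.12 and -0.057, and the small-subunit medians were -0.063, -0.035, -0.25, -0.0015 and -0.13. The small subunit was lower in mice 3 and 5 and the large subunit in mice 1, 2 and 4. The differences were -0.035, -0.023, 0.19, -0.11 and 0.077, with a mean of 0.019 ± 0.12 (SD, n = 5 mice). Without mouse 3 the difference of the medians was -0.0044, and without its Cy3 array alone it was -0.014. On that array the small-subunit probes had a median of -0.36 and the large-subunit probes 0.088. In the dye term the difference was -0.045. Of the large subunit 4 of 34 genes and of the small subunit 5 of 22 were negative in every mouse.

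**Figure D2:**
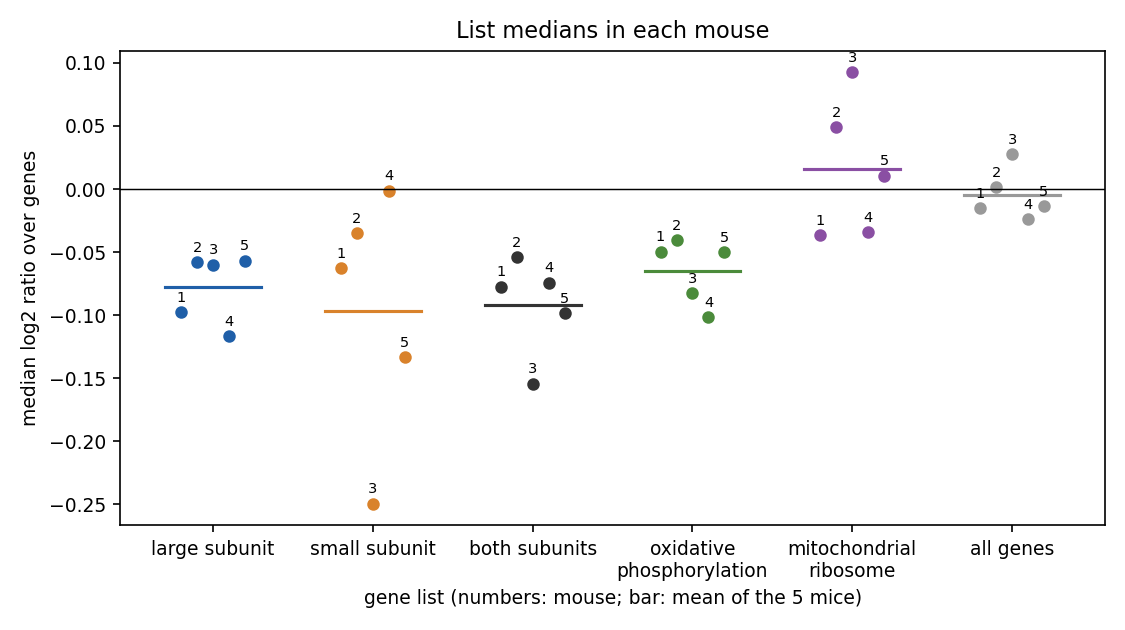
Median log2 ratio (pair means as deposited) over the genes of 6 lists in each of the 5 mice, with the mouse number beside each point and the mean of the mice as a bar. Ribosomal protein genes and oxidative phosphorylation genes lie below 0 in all 5 mice, the mitochondrial ribosome on both sides of 0, and the small subunit is lowest in mouse 3, at -0.25.

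A probe of the ribosome read differently by dye as often as other probes did. Of the 68 ribosomal protein probes with values on all 10 arrays, the 5 Cy5 and 5 Cy3 values did not overlap in 11, or 16.2%, against 15.1% of all such probes. The Cy5 arrays lay above in 5, or 7.35% against 6.59%, on probes of Rpl31, Rps14, Rps18, Rps21 and Rps28. They lay below in 6, or 8.82% against 8.55%, on probes of Rpl13, Rpl22, Rpl30, Rplp0, Rps10 and Rpsa. Rps21, a protein of the small-subunit platform, had the smallest p of the dye term on its probe 12977. Its Cy5 arrays read 0.34, 0.45, 0.31, 0.44 and 0.33 and its Cy3 arrays -0.52, -0.73, -0.73, -0.81 and -0.73. The dye term was 0.54 ± 0.076, with an unadjusted p of 0.000893 and an adjusted p of 0.0988. In the other reading of the swap 21 of 80 probes had an unadjusted p under 0.05, or 26.2%, against 27.6% of all probes, and 0 passed the adjusted threshold, against 0%. Of the genes 14 of 60 had an unadjusted p under 0.05, or 23.3%, against 26.2% of all genes, and 0 of 60 passed the adjusted threshold, against 0%. Of the 14, Rps18 at 0.68 ± 0.39 and Rps28 at 0.39 ± 0.12 had the smallest p among positive values, and Rpl13, at -0.43 ± 0.18, among negative ones. When the arrays were also scaled to the same spread, 1 ribosomal protein probe passed in the other reading, probe 8318 of Rps28, at an adjusted p of 0.0497, beside 257 probes of the whole table. Only 1 of the 68 probes was negative on all 10 arrays, or 1.47%, against 0.0884% of all, and 0 were positive on all 10, against 0.125%. That was Rpl30 probe 14725, which read -0.31, -0.26, -0.092, -0.28 and -0.22 with the mutant in Cy5 and -0.49, -0.13, -0.49, -0.45 and -0.53 with it in Cy3.

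**Figure D3:**
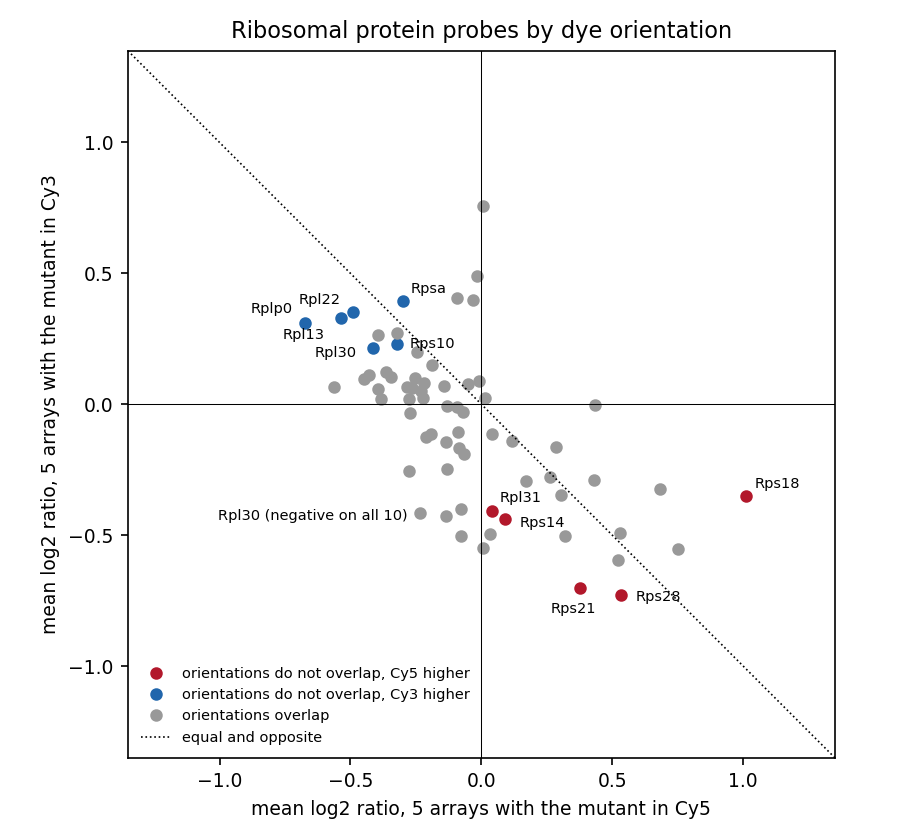
Mean log2 ratio of each ribosomal protein probe with 10 values, over the 5 arrays with the mutant in Cy5 (horizontal) and the 5 with it in Cy3 (vertical). Red and blue points are the 5 and 6 probes whose orientations do not overlap, grey points are the others, and the dotted line marks equal and opposite means. The Rps18 probe lies farthest right, at 1.01 and -0.35, and the 1 labelled probe of Rpl30 in the lower left was negative on all 10 arrays.

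In the 19 genes with more than 1 tested probe, probes of the same transcript were set side by side. The probe means as deposited had 1 sign in 12 of the 19 genes and the dye terms in 6. As deposited 76.2% of the 80 probes were negative, so probes of different genes would often share a sign too. The median range between probes of a gene was 0.169 for the means and 0.454 for the dye terms. These ranges are on unlike scales, since the median size over the 80 probes was 0.120 for the means and 0.222 for the dye terms. The same values over all genes were not counted. Rplp0, the P-stalk protein used widely as a reference gene, had probe means of -0.18 on probe 7366 and 0.098 on probe 7411. On probe 7366 the Cy5 arrays read -0.047, -0.53, -0.66, -0.96 and -1.18 and the Cy3 arrays 0.29, 0.29, 0.60, 0.069 and 0.30. On probe 7411 the Cy5 arrays read 0.60, 0.53, 0.86, 0.62 and 1.13 and the Cy3 arrays -0.80, -0.49, 0.56, -1.14 and -0.89. The dye terms were thus -0.49 and 0.65, of opposite sign, the largest gap of the 19 genes. The probes of Rps28 had means of -0.28 and -0.096 and dye terms of 0.14 and 0.63. Those of Rpl30 had means of -0.32 and -0.10 and dye terms of 0.092 and -0.31. The smallest gap in means was that of Rps14, between -0.17 and -0.15, and the largest that of Rpl4, between -0.82 and 0.018. The SD over mice of Rps14 was 0.045 on probe 19586 and 0.77, over 4 mice, on probe 19645, so its small gap does not show close agreement. The low probe of Rpl4 read -2.16 and -4.25 on the 2 arrays of mouse 4, while the other read 0.56 and -0.95. Probes of 1 gene share its RNA and are not replicates, and the cause of the gaps was not tested.

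**Figure D4:**
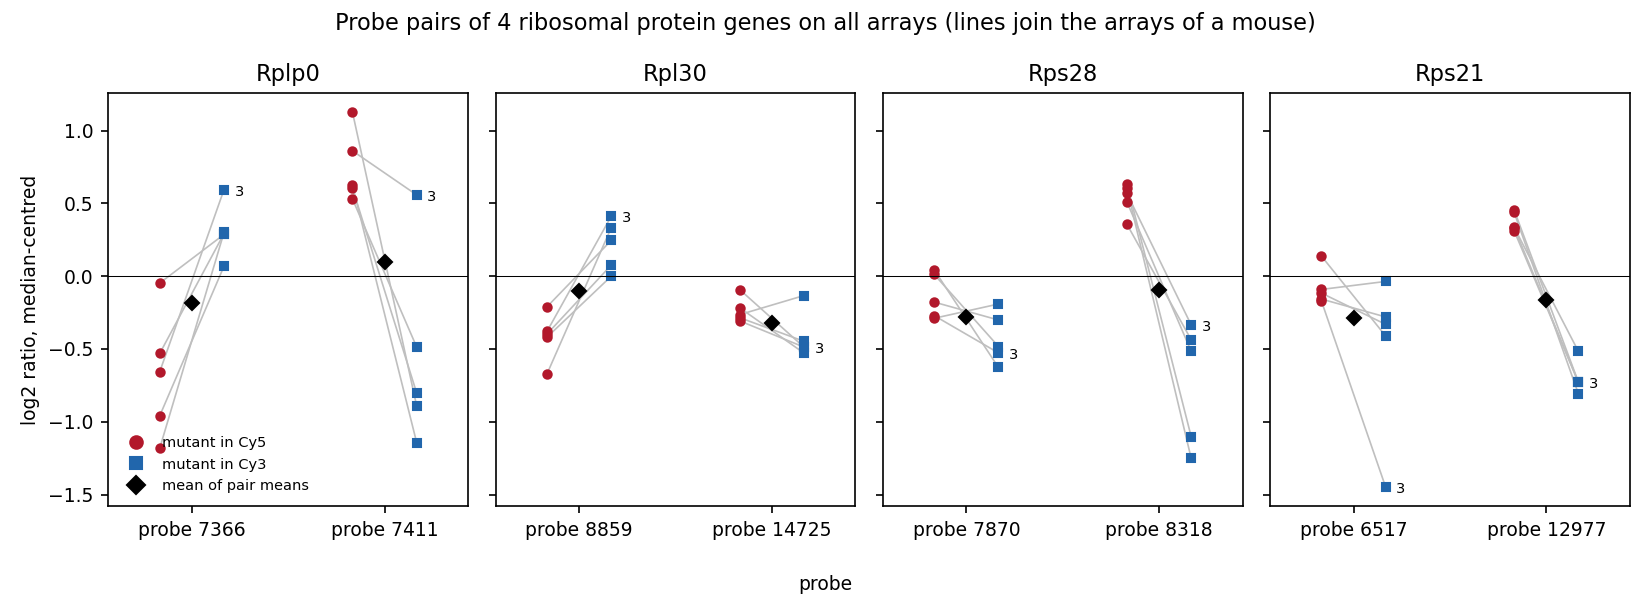
Log2 ratios on every array for a pair of probes of Rplp0, Rpl30, Rps28 and Rps21, with red circles for the mutant in Cy5, blue squares for the mutant in Cy3, lines joining the arrays of a mouse and diamonds for the mean of the pair means. The digit beside a square marks the Cy3 array of mouse 3. The 2 probes of Rplp0 swing in opposite directions with the dye, while probe 14725 of Rpl30 stays below 0 on all 10 arrays.

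Other genes of the translation machinery were set beside the subunits. Of 15 measured mRNAs known to carry the terminal oligopyrimidine motif, such as elongation factors and Tpt1, 12 had negative means, with a median of -0.051, and 0 passed the threshold. Of their dye terms 10 were negative, with a median of -0.16. Nap1l1, a histone chaperone, at -0.24 ± 0.14, was the 1 gene with an unadjusted p under 0.05. Elongation factor Eef1b2 had a mean of -0.19 ± 0.18 and Eef2 of 0.019 ± 0.072. Ribosome assembly factors lay on both sides of 0, with 11 of 24 negative and a median of 0.018, among them nucleophosmin, Npm1, at 0.024 ± 0.059. Of the genes that signal to ribosome synthesis 7 of 8 had positive means, with a median of 0.13, and 0 at an unadjusted p under 0.05. Mtor, the kinase itself, had a mean of 0.14 ± 0.29, and Larp1, which binds the pyrimidine run, of -0.097 ± 0.30. The mitochondrial ribosome, which translates mitochondrial mRNAs, had 26 of 59 means negative, with a median of 0.029. Oxidative phosphorylation, whose mRNAs are also abundant, had 51 of 74 negative, with a median of -0.068. As dye terms, 16 of 24 assembly factors were negative, with a median of -0.11, 3 of 8 signalling genes, with 0.018, 30 of 59 genes of the mitochondrial ribosome, with -0.0065, and 33 of 74 of oxidative phosphorylation, with 0.060. These values are descriptions, since the lists were compared by counts and medians and not by a test, and the lists were measured on the same arrays.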

How the data were processed

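The authors deposited log2 ratios of 20355 probes on 10 arrays. Per the labels' protocols, column-purified total RNA was run on a gel and its cDNA labelled indirectly with Cy3 or Cy5. The sources used here name no scanner, background correction or normalization. Signal over background was not analysed here. Precision is limited by the number of mice and by the single wildtype pool. Probe names came from an older platform annotation, in which 61 of the 62 genes matched RefSeq by Entrez identifier.

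Each array was median-centred, each mouse's 2 arrays were averaged, and 5 mice were tested against 0 with lmFit and eBayes (limma 3.58.1, R 4.3.3), with Benjamini-Hochberg adjustment over all probes or genes and a threshold of 0.05. Probes needed both arrays of at least 4 mice. Tested probes of a gene were averaged per mouse. The mouse is the replicate, as separate animals are named in the labels. Ratios of extreme size (above 16) were kept. The fit was tested on simulated data.

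The genes named were the 5 lowest and 5 highest means, the 6 smallest p among genes of 1 sign in all 5 mice, probes of 1 sign on all 10 arrays or split by dye, genes with several probes, and genes with an outlying mouse. Other genes illustrate role groups. Members, lists and rules were chosen with earlier results of these data known. The alternatives were other centring, scaling, filters, probes, readings and fits, and leaving out each mouse.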

Additional observations from a re-analysis of the deposited data

Results flagged for a closer look

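Of the 60 measured genes, 6 had a mouse whose pair mean lay farther from the nearest other than Dixon's 95% limit for their number of mice allows, and it was mouse 3 in all 6. That is 10% of the genes, against 12% of all 8711 genes for any mouse and 7.62% for mouse 3. Chance marks about 1 in 20 groups. The values of mouse 3 were 0.72 for Rpl10a, 0.55 for Rpl11, 0.59 for Rpl13a, -0.51 for Rpl27a, -2.10 for Rpl39l and -0.61 for Rps15a. The first 3 were the highest of their gene and the last 3 the lowest. The Cy3 array of mouse 3 is the one that stood apart from the other 9 over all probes, and its part in these values was not tested. On it Rpl10a read 1.62, against -0.18 on the Cy5 array of that mouse, and Rpl39l read -3.02, against -1.17.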

How the results depend on the processing

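Every alternative that gives this count kept 0 ribosomal protein probes past the threshold, except scaling in the other reading of the swap, chosen after seeing the data, with 1 (257 over the whole table). The median over ribosomal protein genes stayed negative throughout. It was -0.031 in the other reading, where the median over all genes was lower, at -0.051. It was -0.033 on the Cy3 arrays alone, against 0.0070 over all genes. Leaving out each mouse it lay between -0.090 and -0.076, with 41 to 48 genes negative. Large minus small subunit was -0.058 on the Cy5 arrays alone and between -0.0044 and 0.11 leaving out each mouse, and the median dye term was then between -0.045 and -0.0062. Of 238 alternative values of 14 named genes, 0 passed the threshold and 24 turned sign. In the other reading these were Rpl4 0.47, Rpl39l 0.28, Rps27 0.16, Rps29 0.26, Rps15 -0.16, Rpl10a -0.22, Rps12 -0.38, Rpl31 0.22 and Rps28 0.39. On the Cy5 arrays alone they were Rpl39l 0.0068, Rps29 0.033, Rps15 -0.034, Rpl10a -0.033, Rpl31 0.039 and Rps28 0.20, and on the Cy3 arrays alone Rps19bp1 -0.001 and Rps18 -0.35. Rpl4 was 0.018 with both arrays of all 5 mice required and with the most complete probe, and leaving out each mouse gave Rpl4 between -0.41 and 0.085, Rps12 between -0.063 and 0.58, Rpl39l between -0.42 and 0.19 and Rps19bp1 between -0.014 and 0.39. With 9 arrays Rpl39l was 0.049. Beyond these constructions the cause was not tested. No paired analysis was possible because there is 1 mutant group and the pool is a common partner. With the mouse as a random block over 10 arrays the median was -0.070.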
